A study of Mus musculus with 12 samples.

Results

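The urea cycle and periportal amino acid catabolism genes were Cps1, Otc, Asl, Arg1, Nags, Slc25a15, Hal, Sds and Sdsl, chosen by name. A gene was measured where the array carried a probe set annotated to that symbol alone. This held for 7 of the 9 genes, each with 1 probe set, among 17052 genes tested in all. Sds and Sdsl had no such probe set in the annotation used here. Ass1, the remaining enzyme of the cycle, sat only on probe sets annotated to a further gene as well and was not used.

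The samples were livers of female BALB/cByJ mice, 2.5 months old, that were either wild type for Pml (wt) or Pml knockout (KO). Acetaminophen, which injures the liver in overdose, was given into the peritoneum at 300 mg per kg in warmed PBS, and livers were taken 2 h or 6 h later. Untreated mice of each genotype were the controls, so the 6 groups were wt untreated, wt 2 h, wt 6 h, KO untreated, KO 2 h and KO 6 h. Each group held 2 arrays, 12 in all, of total liver RNA on a whole-transcript Affymetrix mouse array. Whether the untreated mice received the vehicle, which part of Pml was deleted, and whether the 2 arrays of a group came from separate animals are not given in the sources used here. Hence the p-values measure only how much these arrays varied.

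The urea cycle turns the ammonia set free by amino acid breakdown into urea and runs in hepatocytes around the portal vein. Nags makes N-acetylglutamate, the obligate activator of Cps1. Cps1 joins ammonia and bicarbonate to carbamoyl phosphate in the mitochondrion, and Otc passes that group to ornithine to make citrulline. Slc25a15 carries ornithine into the mitochondrion in exchange for citrulline. In the cytosol Asl splits argininosuccinate into arginine and fumarate, and Arg1 releases urea and returns ornithine. Hal, histidine ammonia-lyase, takes the amino group off histidine as ammonia and starts its breakdown. Acetaminophen is oxidised to its reactive metabolite mainly by Cyp2e1 of hepatocytes around the central vein, at the other end of the lobule.

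Pml, the deleted gene, had a log2 intensity of 7.82 to 8.46 on the 6 wt arrays and 7.09 to 7.97 on the 6 KO arrays. The KO arrays were lower than the wt arrays within each condition, and the mean difference over the 3 conditions was -0.70 ± 0.14 (SE of the fit, limma, adjusted p = 0.035). The array labelled KO untreated replicate 2, at 7.97, lay above all 4 wt arrays after acetaminophen, and probes outside the deleted part would not report the deletion. Median intensities were 79.9 to 90.1 per array. The array KO 6 h replicate 2 stood apart on the first principal component, at 19.8 against 39.7 to 44.8 for the other 6 h arrays. Leaving out either of these arrays was checked for calls of the 7 genes and for counts of the nitrogen, amino acid, periportal, perivenous and regulator lists. Where this changed a KO call or moved a KO count given here by over 1.5 times, the value without the array is given. Other calls of single genes were not checked this way, apart from differences of responses, nor were counts of cell type markers. The 10 hepatocyte identity markers had a median log2 difference from untreated between -0.16 and 0.01 in the 4 responses, and Ttr alone among them passed the test, lower at 6 h in both genotypes. The identity markers read 12.38 to 13.48 on the log2 scale, and whether a change is reported in full at such high intensities was not tested. In whole liver, fewer cells of a type and less RNA per cell cannot be told apart.

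Across the genes, Otc, Nags and Hal fell after acetaminophen, whereas no change of Cps1 passed the test in any comparison. Asl, Arg1 and Slc25a15 did not pass the test at 6 h in either genotype. A gene was called where its adjusted p in limma, Benjamini-Hochberg over all 17052 genes, was under 0.05. In wt mice at 2 h, 1 of the 7 genes was called higher (Arg1) and 2 lower (Otc and Nags), against 6.53% of all genes called higher and 6.17% called lower. In wt mice at 6 h, 0 were called higher, also at an unadjusted p under 0.05, and 3 lower (Otc, Nags and Hal), against 16.5% and 22% of all genes. In KO mice at 2 h, 0 were called higher, with 1 (Asl) at an unadjusted p under 0.05, and 2 lower (Otc and Nags), where 10.6% and 20.8% of all genes were called. In KO mice at 6 h, 0 were called higher, none at an unadjusted p under 0.05 either, and 3 lower (Otc, Nags and Hal), with 15.8% and 19.1% of all genes called. Under quantile normalization the share of higher calls among all calls of the KO 2 h comparison was 44.7% in place of 33.9%. The median log2 difference of the 7 genes in wt mice was 0.05 at 2 h and -0.19 at 6 h, beside 0.02 and -0.05 over all genes. In KO mice it was -0.11 and -0.34, beside -0.06 and -0.05.

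**Figure D1:**
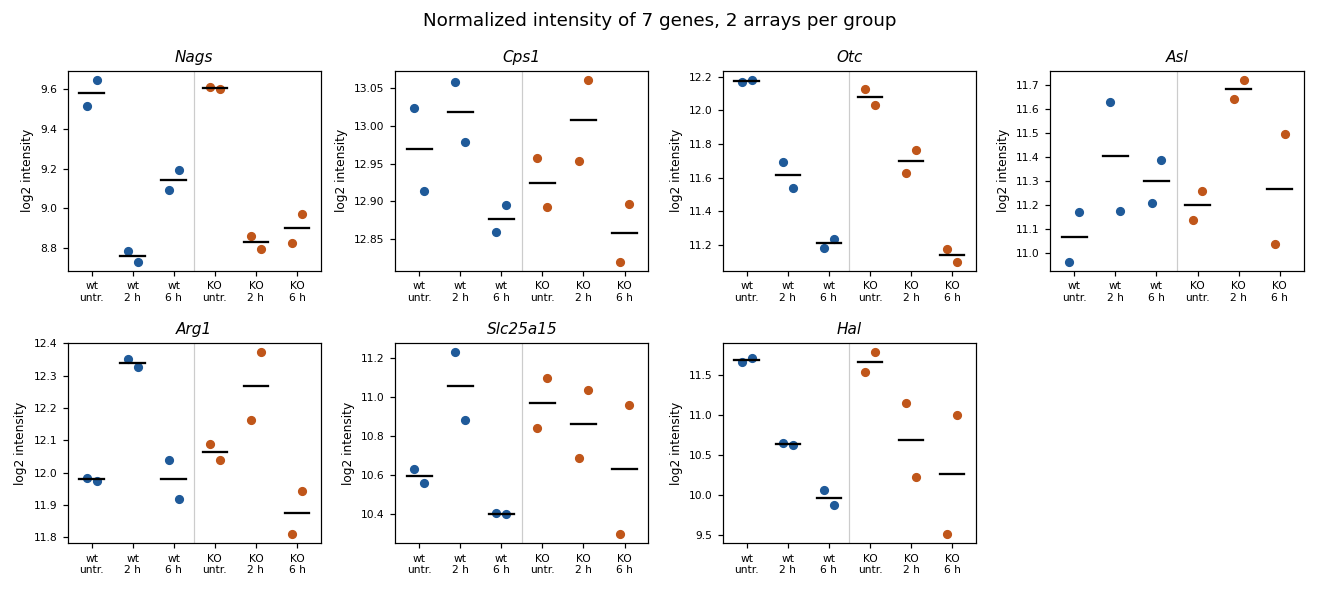
Log2 intensity of each of the 7 measured genes on every array, by group, with 2 arrays (points) and their mean (bar) per group and a separate scale per gene. Otc stepped down from 12.18 to 11.21 in wt mice and from 12.08 to 11.14 in KO mice, while Cps1 stayed between 12.82 and 13.06.

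**Figure D2:**
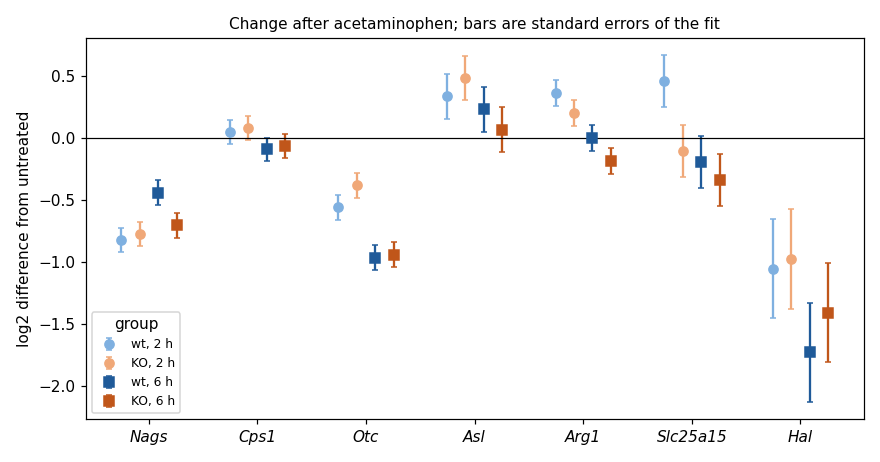
Fitted log2 difference from the untreated mice of the same genotype at 2 h and 6 h, with bars for the standard error of the fit. Otc, Nags and Hal lay below 0 in all 4 comparisons, and Cps1 lay within 0.10 of 0.

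The promoters of Otc, Nags and Hal are shown because these genes carry the fall. RefSeq windows on GRCm38.p6 were at hand for 4 of the 9 genes. The 250 bases before each transcription start are printed 5′ to 3′ on the gene's strand, which is the plus strand for all of these. Capitals mark a match to a searched motif.
Otc, chrX:10252055-10252304: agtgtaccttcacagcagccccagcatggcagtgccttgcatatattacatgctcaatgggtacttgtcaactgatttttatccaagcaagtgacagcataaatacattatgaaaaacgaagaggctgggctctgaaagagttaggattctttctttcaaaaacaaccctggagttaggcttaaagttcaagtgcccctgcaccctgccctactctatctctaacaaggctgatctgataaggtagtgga
Nags, chr11:102145263-102145512: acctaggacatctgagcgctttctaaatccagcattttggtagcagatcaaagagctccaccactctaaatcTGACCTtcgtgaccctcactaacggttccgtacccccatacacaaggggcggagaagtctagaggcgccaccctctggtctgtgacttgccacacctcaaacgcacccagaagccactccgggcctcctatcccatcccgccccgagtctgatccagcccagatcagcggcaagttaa
Hal, chr10:93488518-93488767: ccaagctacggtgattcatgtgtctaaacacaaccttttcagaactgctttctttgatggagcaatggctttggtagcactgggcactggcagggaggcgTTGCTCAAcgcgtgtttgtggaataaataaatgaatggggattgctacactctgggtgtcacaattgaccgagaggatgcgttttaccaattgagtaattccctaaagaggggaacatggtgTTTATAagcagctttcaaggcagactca
Motifs were searched on both strands of the 250 bases, and their shares are of 32851 windows of the same length. The C/EBP motif TTGCNNAA, held by 9.56% of windows, lay 150 to 143 bases before the Hal start. AGGTCA, searched here as a part of the HNF4 site, was held by 14% of windows. It lay on the opposite strand 178 to 173 bases before the Nags start, and these letters alone do not name a factor. TATAAA, held by 12.4%, lay on the opposite strand 28 to 23 bases before the Hal start. No match in these windows was found for the HNF1 core GTTAAT (6.43% of windows), the cyclic AMP response element TGACGTCA (1.55%), its core TGACG (17.8%, which every full element also holds) or the glucocorticoid response core AGAACA (16.1%). The Otc window held none of the 7 motifs. A match of letters is a description and does not show binding.

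Nags, the maker of the cycle's activator, fell early and by a similar amount in both genotypes. Log2 intensities on the untreated wt arrays were 9.52 and 9.65, those at 2 h were 8.79 and 8.73, and those at 6 h were 9.09 and 9.19. All arrays after acetaminophen lay below both untreated ones, with 6 h between the other groups. The difference from untreated was -0.82 ± 0.10 at 2 h (adjusted p = 0.000722), to 56.6% of the untreated level. At 6 h it was -0.44 ± 0.10 (adjusted p = 0.00573), and this call was lost without wt untreated replicate 2 (adjusted p = 0.0562). In KO mice Nags read 9.61 and 9.60 before treatment, with 2 h arrays of 8.86 and 8.80 and 6 h arrays of 8.83 and 8.97. Here the 2 h and 6 h arrays overlapped, and both groups lay well under the untreated arrays. The differences were -0.77 ± 0.10 for 2 h (adjusted p = 0.000628) and -0.70 ± 0.10 for 6 h (adjusted p = 0.000458), and without KO untreated replicate 2 or KO 6 h replicate 2 they passed the test as well. In the order of group means, KO untreated and wt untreated came first and did not differ beyond their spread, followed by wt 6 h, then KO 6 h and KO 2 h, which did not differ beyond theirs, and wt 2 h. A difference beyond the spread here means a gap between means that was larger than the larger SD of the neighbouring groups.

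Cps1, which commits ammonia to the cycle, had the steadiest readings of the measured genes. Its wt arrays read 13.02 and 12.91 untreated, with 2 h arrays of 13.06 and 12.98 and 6 h arrays of 12.86 and 12.89. Its KO arrays read 12.96 and 12.89 untreated, with 2 h arrays of 12.95 and 13.06 and 6 h arrays of 12.82 and 12.90. The groups overlapped for the most part, and the whole range over the 12 arrays was 0.24 on the log2 scale. Differences from untreated were 0.05 ± 0.10 and -0.09 ± 0.10 in wt mice at 2 h and 6 h, and 0.08 ± 0.10 and -0.07 ± 0.10 in KO mice (adjusted p between 0.489 and 0.79). The order of means was wt 2 h, KO 2 h, wt untreated, KO untreated, wt 6 h and KO 6 h, and only KO untreated and wt 6 h differed beyond their spread. Cps1 was also the brightest of the measured genes, and Alb, the brightest gene of the lists used here, read 13.32 to 13.48. Whether the array reports a change in full at such high intensities was not tested, so the steadiness is that of the readings.

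Otc, the enzyme after Cps1, declined in 2 steps. In wt mice it read 12.17 and 12.18 untreated, then 11.69 and 11.54 (2 h), then 11.18 and 11.24 (6 h). No array of one time overlapped another time. The difference was -0.56 ± 0.10 at 2 h (adjusted p = 0.00567), or 67.9% of untreated, a call lost without wt 2 h replicate 2 (adjusted p = 0.0567). By 6 h it was -0.97 ± 0.10 (adjusted p = 7.14e-05), or 51.2% of untreated. KO arrays read 12.12 and 12.03 untreated, then 11.63 and 11.77 (2 h), then 11.18 and 11.10 (6 h). They followed the same steps without overlap between times. The KO difference at 2 h was -0.38 ± 0.10 (adjusted p = 0.0164); without KO untreated replicate 2 the adjusted p was 0.0499, without KO untreated replicate 1 it was 0.0948, and without KO 2 h replicate 1 it was 0.0926. At 6 h the KO difference was -0.94 ± 0.10 (adjusted p = 9.55e-05), or 52.1% of untreated. In the order of means, wt untreated, KO untreated, KO 2 h, wt 2 h, wt 6 h and KO 6 h, only the 2 groups at 2 h did not differ beyond their spread.

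Slc25a15, the ornithine carrier that feeds Otc, passed the test in neither genotype against untreated. It read 10.63 and 10.56 in untreated wt mice, then 11.23 and 10.88 (2 h), then 10.41 and 10.40 (6 h). In wt mice the 2 h arrays were the highest and the 6 h arrays the lowest, without overlap. The differences were 0.46 ± 0.21 for 2 h (adjusted p = 0.186) and -0.19 ± 0.21 for 6 h (adjusted p = 0.501). KO arrays read 10.84 and 11.10 untreated, then 10.69 and 11.04 (2 h), then 10.30 and 10.96 (6 h). These groups overlapped, and the 2 arrays at 6 h were far apart. The KO differences were -0.11 ± 0.21 (adjusted p = 0.729) and -0.34 ± 0.21 (adjusted p = 0.238). Without KO 6 h replicate 2 the latter was -0.67 and was called (adjusted p = 0.0264). The order of means was wt 2 h, KO untreated, KO 2 h, KO 6 h, wt untreated and wt 6 h, with only the last pair differing beyond its spread.

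Asl, the cytosolic lyase, passed no test against untreated. In wt mice it read 10.97 and 11.17 untreated, then 11.63 and 11.18 (2 h), then 11.21 and 11.39 (6 h). The arrays at 2 h were far apart, although every treated array lay above the untreated ones. Differences were 0.34 ± 0.18 for 2 h (adjusted p = 0.258) and 0.23 ± 0.18 for 6 h (adjusted p = 0.338). In KO mice Asl read 11.14 and 11.26 untreated, then 11.64 and 11.72 (2 h), then 11.04 and 11.50 (6 h). Both 2 h arrays exceeded all other KO arrays, and the 6 h arrays lay on either side of the untreated ones. The KO difference at 2 h was 0.48 ± 0.18 (adjusted p = 0.0631), which was called without either wt 2 h array (adjusted p = 0.0464) or without either KO 6 h array (adjusted p = 0.0387). At 6 h it was 0.07 ± 0.18 (adjusted p = 0.799). From KO 2 h down through wt 2 h, wt 6 h, KO 6 h, KO untreated and wt untreated, no neighbours differed beyond their spread.

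Arg1, which releases urea, read higher at 2 h than untreated in both genotypes, and only the wt difference was called. In wt mice it read 11.98 and 11.97 untreated, then 12.35 and 12.33 (2 h), then 12.04 and 11.92 (6 h). Both 2 h arrays lay above the rest, and the 6 h arrays lay on either side of the untreated ones. The difference at 2 h was 0.36 ± 0.11 (adjusted p = 0.0493), or 128% of untreated. That call sat at the threshold and was lost when any of 10 of the 12 arrays was left out (adjusted p 0.0509 to 0.202). At 6 h the difference was 0.00 ± 0.11 (adjusted p = 0.999). KO arrays read 12.09 and 12.04 untreated, then 12.16 and 12.37 (2 h), then 11.81 and 11.94 (6 h). The 3 KO groups did not overlap, yet neither difference passed, at 0.20 ± 0.11 (adjusted p = 0.162) and -0.19 ± 0.11 (adjusted p = 0.197). The order of means was wt 2 h, KO 2 h, KO untreated, wt 6 h, wt untreated and KO 6 h. KO 2 h and KO untreated differed beyond their spread, as did wt untreated and KO 6 h.

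Hal, the first enzyme of histidine breakdown, had the largest fall among the 7 genes and also the widest spread. It read 11.67 and 11.72 in untreated wt mice, then 10.65 and 10.63 (2 h), then 10.06 and 9.87 (6 h). The wt groups were far apart relative to the distance within each. Its fitted differences were -1.05 ± 0.40 for 2 h (adjusted p = 0.117), or 48.2% of untreated, and -1.73 ± 0.40 for 6 h (adjusted p = 0.00659), or 30.2% of untreated. The fit used 1 spread for all 6 groups, and without either KO 6 h array, whose spread then left the estimate, the wt 2 h difference was called (adjusted p = 0.0201). KO arrays read 11.54 and 11.79 untreated, then 11.15 and 10.23 (2 h), then 9.51 and 11.00 (6 h). Replicates disagreed at both times after acetaminophen, so that the 2 h and 6 h groups overlapped, but all 4 arrays lay below the untreated ones. The KO difference was -0.97 ± 0.40 at 2 h (adjusted p = 0.0885), called without KO 2 h replicate 1 (adjusted p = 0.0475) or without either KO 6 h array (adjusted p = 0.0139). At 6 h it was -1.41 ± 0.40 (adjusted p = 0.0204), or 37.7% of untreated. Without KO 6 h replicate 2 this was -2.15 (adjusted p = 0.000773), and without KO 6 h replicate 1 it was -0.66 (adjusted p = 0.141). The call was also lost without KO untreated replicate 1 (adjusted p = 0.056) or replicate 2 (adjusted p = 0.104). In the order wt untreated, KO untreated, KO 2 h, wt 2 h, KO 6 h and wt 6 h, only KO untreated and KO 2 h differed beyond their spread. The residual SD of Hal, 0.51, lay at the 98.9th percentile of all tested genes, whereas those of Cps1, Nags, Otc and Arg1 were 0.06 to 0.08.

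The enzymes after Hal in histidine breakdown fell with less spread. Urocanase, Uroc1, differed from untreated by -0.66 ± 0.12 in wt mice at 2 h and -1.29 ± 0.12 at 6 h, and by -0.67 ± 0.12 and -1.36 ± 0.12 in KO mice. Amdhd1, which opens the imidazolone ring, differed by -0.95 ± 0.15 and -1.77 ± 0.15 in wt mice and by -0.83 ± 0.15 and -1.63 ± 0.15 in KO mice. Both genes were called in all 4 responses (adjusted p 2.15e-05 to 0.00552). Ftcd, which hands the formimino group to folate, was called at 6 h alone, at -0.74 ± 0.12 in wt mice and -0.68 ± 0.12 in KO mice, with -0.13 ± 0.12 (adjusted p = 0.538) and -0.17 ± 0.12 (adjusted p = 0.301) at 2 h.

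**Figure D3:**
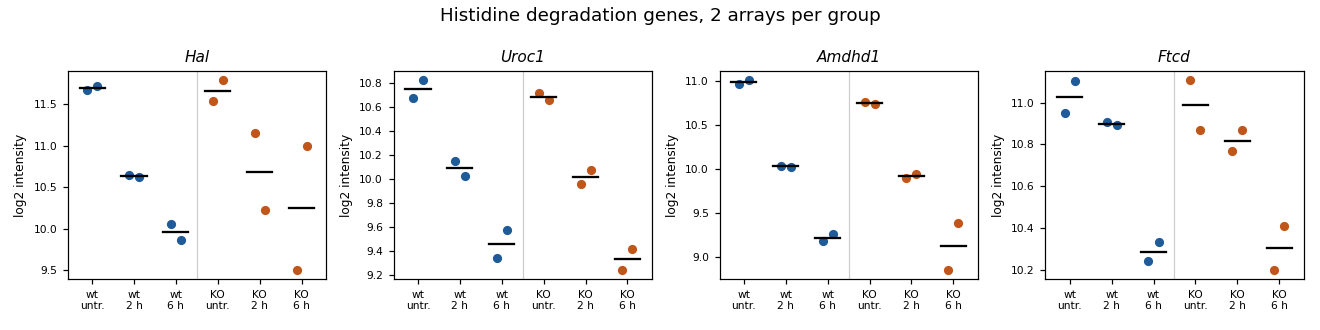
Log2 intensity of the 4 histidine breakdown genes on every array, with 2 arrays (points) and their mean (bar) per group and a separate scale per gene. The KO 6 h arrays of Hal, at 9.51 and 11.00, lay farther apart than those of the other genes.

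Between 2 h and 6 h the genes moved in opposite directions. In wt mice Nags was called higher at 6 h than at 2 h, by 0.38 ± 0.10 (adjusted p = 0.0179), where 10.9% of all genes were called higher. Otc, Arg1 and Slc25a15 were called lower, where 16.8% of all genes were. Their differences were -0.41 ± 0.10 (adjusted p = 0.0139), -0.36 ± 0.11 (adjusted p = 0.0284) and -0.65 ± 0.21 (adjusted p = 0.0409). The 4 calls were fragile, each being lost when single wt arrays of 2 h or 6 h were left out. Fewer of all genes were called in those fits as well. In KO mice 0 genes were called higher, none at an unadjusted p under 0.05, against 19.1% of all genes. Otc, at -0.56 ± 0.10 (adjusted p = 0.00238), and Arg1, at -0.39 ± 0.11 (adjusted p = 0.0173), were called lower, against 12.6%. The Arg1 call was lost without KO 2 h replicate 2 (adjusted p = 0.115) or without KO 6 h replicate 1 (adjusted p = 0.0929). The step in Nags was 0.07 ± 0.10 in KO mice (adjusted p = 0.622). Without KO 6 h replicate 2 the KO step was also called for Asl, at -0.64 (adjusted p = 0.0374), and for Hal, at -1.18 (adjusted p = 0.0209), in place of -0.41 ± 0.18 and -0.43 ± 0.40.

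No gene of the 7 differed between KO and wt mice in limma. The count called was 0 in untreated mice, at 2 h, at 6 h and for the mean of the 3 conditions, where 0.00586%, 2.01%, 9.02% and 1.78% of all genes were called. At an unadjusted p under 0.05 the count was 1 at 6 h and 0 in the others. That gene was Nags, whose KO 6 h arrays lay below the wt 6 h arrays, by -0.24 ± 0.10 (95% interval -0.46 to -0.02, adjusted p = 0.144). The intervals bound what these arrays could show. For the mean of 3 conditions, the 95% interval was -0.15 to 0.10 for Cps1, -0.16 to 0.10 for Otc and Arg1, and -0.18 to 0.08 for Nags. It was wider for Asl, at -0.10 to 0.35, and Slc25a15, at -0.13 to 0.40. For Hal it ran from -0.41 to 0.62, which leaves room for a sizeable difference either way.

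The response itself was compared between genotypes as the KO difference from untreated minus the wt difference. The number of the 7 genes called was 0 at 2 h and 0 at 6 h, also at an unadjusted p under 0.05, where 0.0293% and 0.487% of all genes were called. For Otc the difference of responses was 0.18 ± 0.14 at 2 h and 0.03 ± 0.14 at 6 h, with a 95% interval at 6 h of -0.29 to 0.34. For Nags it was 0.05 ± 0.14 and -0.26 ± 0.14. For Arg1 it was -0.16 ± 0.15 and -0.19 ± 0.15. Slc25a15 had the smallest p, with -0.57 ± 0.30 at 2 h (adjusted p = 0.39). The widest intervals were those of Hal, -1.18 to 1.34 at 2 h and -0.94 to 1.58 at 6 h.

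**Figure D4:**
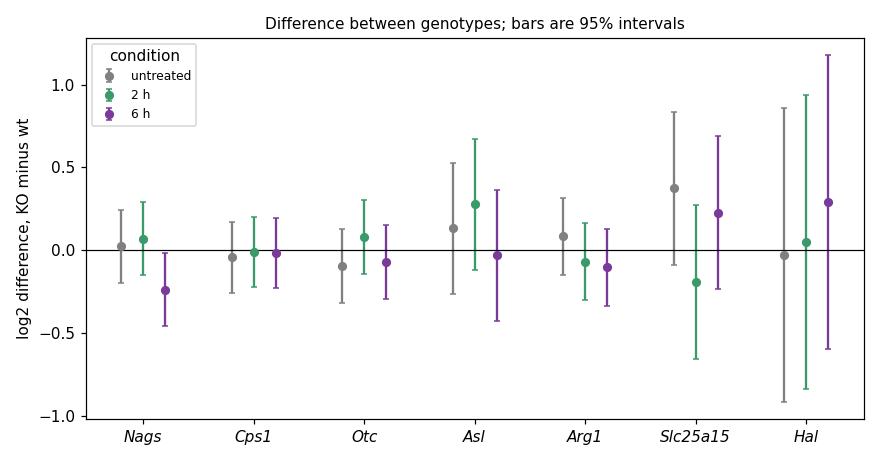
KO minus wt log2 difference of each gene in untreated mice, at 2 h and at 6 h, with 95% intervals from the fit. All intervals cross 0 except Nags at 6 h, and those of Hal are the widest.

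Likeness of pattern was described by Pearson's r of log2 values over the 12 arrays, which share groups and normalization. Among the measured genes, Otc and Hal had r = 0.80, Cps1 and Arg1 r = 0.80, and Nags with Hal r = 0.70. Nags and Asl ran the other way, with r = -0.53. The tested genes most like Otc were Hoga1 (0.99) and Ivd (0.99), and those most like Hal were Aldoc (0.98) and Adh5 (0.97). Nags was most like Sqor (0.96) and Nrn1 (0.96), and Arg1 most like Tbl1xr1 (0.96) and Dgka (0.96). Cps1 came nearest to Ankfn1 (0.94) and Slitrk3 (0.91), Asl to Grm7 (0.91) and Mroh9 (0.91), and Slc25a15 to Plpp3 (0.88) and Hipk4 (0.87).

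Genes that bring nitrogen to the cycle or draw on its products were called in both directions. Of 21 tested, 4 were called higher and 2 lower in wt mice at 2 h, and 5 and 2 in KO mice. At 6 h the counts were 3 higher and 9 lower in wt mice and 2 higher and 10 lower in KO mice. Medians were 0.12 and -0.35 in wt mice and -0.03 and -0.40 in KO mice, beside all-gene medians of 0.02, -0.05, -0.06 and -0.05. Over all genes, 6.53% were called higher and 6.17% lower in wt mice at 2 h, and 10.6% and 20.8% in KO mice. At 6 h the shares were 16.5% and 22% in wt mice and 15.8% and 19.1% in KO mice. The KO 2 h count of lower genes and both 6 h counts of higher genes were therefore near or under the background. Slc25a22, the mitochondrial glutamate carrier, rose in all 4 responses, by 1.56 ± 0.14 and 0.67 ± 0.14 in wt mice and 1.11 ± 0.14 and 0.43 ± 0.14 in KO mice. The amino acid transporter Slc38a2 rose at 2 h by 1.55 ± 0.18 in wt and 1.20 ± 0.18 in KO mice. At 6 h it was higher than untreated by 1.02 ± 0.18 in wt mice and read -0.28 ± 0.18 in KO mice (adjusted p = 0.251). KO minus wt at 6 h was -1.11 ± 0.18 for Slc38a2 (adjusted p = 0.00818), and the difference of responses did not pass (adjusted p = 0.0617). Slc25a13, the aspartate carrier that supplies the second nitrogen of urea, fell at 6 h, with -0.92 ± 0.12 and -1.24 ± 0.12. Gatm, which takes arginine into creatine synthesis, fell in all 4 responses, from -0.86 ± 0.17 to -1.63 ± 0.17. Glul (glutamine synthetase), Oat (ornithine aminotransferase) and Glud1 (glutamate dehydrogenase) were called in no response. At 6 h Glud1 read 11.95 and 12.08 on the wt arrays and 12.43 and 12.59 on the KO arrays. Of the 21 genes, KO minus wt was called higher for 1 and lower for 0 at 2 h, beside 2.01% of all genes called. At 6 h it was called higher for 2 and lower for 2, beside 9.02%. The wt 6 h count of lower genes was 5 without wt untreated replicate 2, the KO 6 h count of higher genes ranged from 0 to 3, and the 2 h counts ranged from 1 to 6 over single left-out arrays. Without KO untreated replicate 2 the KO 2 h counts were 3 higher and 1 lower and the KO 6 h higher count was 1. Without KO 6 h replicate 2 the KO 2 h lower count was 4 and the KO 6 h higher count was 1.

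Other amino acid catabolism genes were mostly lower by 6 h. Of 50 tested, 4 were called higher and 18 lower in wt mice at 2 h, and 1 higher and 41 lower at 6 h. KO mice had 1 higher and 23 lower at 2 h, and 0 higher, none at an unadjusted p under 0.05, and 41 lower at 6 h. Over all genes 6.53% were called higher and 6.17% lower in wt mice at 2 h, and 10.6% and 20.8% in KO mice. At 6 h the shares were 16.5% and 22% in wt mice and 15.8% and 19.1% in KO mice. Medians were -0.28 and -0.81 in wt mice and -0.33 and -0.81 in KO mice. The 6 h counts of lower genes stayed within 38 to 41 when single arrays were left out. At 2 h they did not: the wt count was 9 without wt untreated replicate 2 and 10 without wt 2 h replicate 2, and the KO count was 13 and 15 without KO untreated replicate 1 and replicate 2. The KO 2 h count of higher genes was 0 without KO untreated replicate 2 and 2 without KO 6 h replicate 2. Among the lowest p at 6 h were those of Aldh4a1 of proline breakdown, at -1.42 ± 0.10 in both genotypes, and of Haao of the tryptophan route, at -1.59 ± 0.11 in wt and -1.30 ± 0.11 in KO mice. Shmt1, which exchanges serine and glycine, fell by 1.66 in wt mice at 6 h, and the leucine enzyme Auh fell by 1.30 in KO mice. Tat, tyrosine aminotransferase, rose by 0.55 in wt mice at 2 h and fell by 0.59 in KO mice at 6 h. Tdo2, which opens the tryptophan ring, was called once, at 0.50 ± 0.14 in wt mice at 2 h (adjusted p = 0.046).

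**Figure D5:**
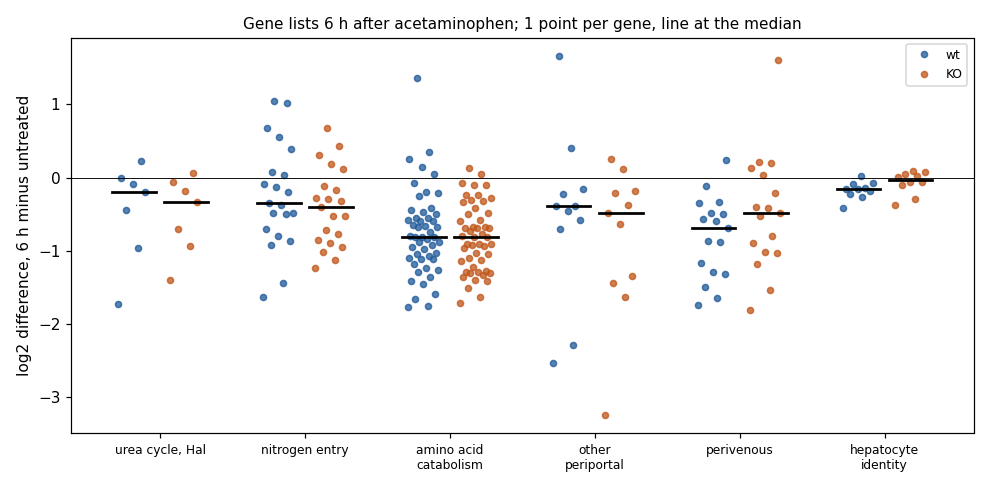
Log2 difference from untreated at 6 h of every tested gene of each list, in wt and KO mice, with the median of each list. The amino acid catabolism genes have a median of -0.81 in both genotypes, below the medians of the measured urea cycle genes, -0.19 in wt and -0.34 in KO mice.

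Genes of both ends of the lobule were called lower. Of 11 other genes known to be high in periportal hepatocytes, 5 were called lower and 2 higher in wt mice at 6 h, and 6 lower and 0 higher in KO mice, with 1 higher at an unadjusted p under 0.05. Of 17 perivenous genes, 3 of which also stand in the nitrogen list, 10 were called lower and 0 higher in wt mice at 6 h, none higher at an unadjusted p under 0.05, and 7 lower and 1 higher in KO mice. Of all genes, 22% were called lower and 16.5% higher in wt mice, and 19.1% and 15.8% in KO mice, so the 2 periportal genes called higher in wt mice were near the background. Medians at 6 h were -0.39 and -0.49 for the periportal and -0.70 and -0.48 for the perivenous list. Aldh1b1, a mitochondrial aldehyde dehydrogenase on the periportal list, differed by -2.30 ± 0.20 in wt and -1.35 ± 0.20 in KO mice. Rgn, on the perivenous list, differed by -1.74 ± 0.13 and -1.81 ± 0.13. A test of one list against another was not run.

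Some genes known to regulate urea cycle and amino acid enzymes were called as well. Of 16 tested, 1 was called higher and 7 lower in wt mice at 6 h, and 2 higher and 4 lower in KO mice. Over all genes 16.5% were called higher and 22% lower in wt mice, and 15.8% and 19.1% in KO mice, so the KO counts and the wt higher count were near or under the background. The lower count in wt mice was 4 without wt 6 h replicate 1. Sirt3, a mitochondrial deacetylase, differed by -1.12 ± 0.10 in wt and -1.05 ± 0.10 in KO mice at 6 h. Gcgr, the glucagon receptor, differed by -0.65 ± 0.10 and -0.64 ± 0.10. Klf15, a regulator of amino acid breakdown, differed by -1.24 ± 0.13 and -2.48 ± 0.13. Cebpb, an acute-phase transcription factor, rose by 2.14 ± 0.24 and 1.18 ± 0.24.

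Markers of other cells moved with time as well. The summed intensity of 15 Kupffer cell and macrophage markers was 6325 to 6540 in untreated and 4912 to 5310 in 6 h wt mice, and 6441 to 7028 and 5783 to 5869 in KO mice. These markers did not move one way: 3 were called higher and 5 lower in wt mice at 6 h, and 2 higher and 6 lower in KO mice. The sum of 13 neutrophil markers was 705 to 731 in untreated and 2506 to 4911 in 6 h wt mice, against 680 to 724 and 727 to 887 in KO mice. In wt mice at 6 h, 9 of these 13 were called higher and 1 lower, and in KO mice 0 were called either way. At an unadjusted p under 0.05, 1 was higher in KO mice. Of all genes, 16.5% were called higher and 22% lower in wt mice at 6 h, and 15.8% and 19.1% in KO mice. Otc stood at 51.2% of untreated in the wt and 52.1% in the KO mice at that time. Summed hepatocyte identity markers were 79298 to 82856 in untreated and 72090 to 73029 in 6 h wt mice, and 72567 to 78083 and 72055 to 72964 in KO mice. The part of these shifts in the results for the urea cycle genes was not tested.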

How the data were processed

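Livers were profiled on 12 Affymetrix Mouse Gene 1.1 ST arrays, 2 per group. Per the submitters' processing notes, the authors normalized with RMA in Expression Console. The deposited values are linear normalized intensities, to which log2 was applied here, with no pseudocount added; the planned fit had assumed log2 values. Of 35556 probe sets, 21218 carried 1 symbol, 1881 several and 12457 none. A gene was tested where its mean log2 was at least 5, on its brightest probe set, which left 17052 genes. limma 3.58.1 (R 4.3.3) fitted 6 group means over 12 arrays, with 6 residual degrees of freedom, and 12 comparisons were adjusted by Benjamini-Hochberg, each over all genes. Errors are standard errors of that fit; precision is limited by the number of arrays. The members and the 14 other gene lists were chosen with earlier results of these data known. All members were named; from other lists, up to 4 called genes with the smallest p per comparison and a fixed set (Ass1, Arg2, Glul, Oat, Gls2, Glud1, Tat, Tdo2, Uroc1, Amdhd1, Ftcd), of which Ass1, Arg2 and Gls2 were not tested. Endothelial, stellate, bile duct, erythroid, intestine and pancreas markers were counted. In wt mice at 6 h they gave 3, 1, 2, 2, 0 and 0 genes called higher and 5, 4, 0, 1, 0 and 0 lower, of 8, 9, 4, 5, 5 and 4 tested. In KO mice at 6 h the counts were 0, 0, 2, 0, 0 and 0 higher and 4, 0, 0, 2, 0 and 1 lower. Of all genes, 16.5% were called higher and 22% lower in wt mice at 6 h, and 15.8% and 19.1% in KO mice. Alternatives were the filter, quantile normalization, an offset of 16, averaged probe sets and a variance trend. Compared groups only, a replicate block and single arrays left out were the others. Applying them to the counts of the nitrogen, amino acid, periportal, perivenous and regulator lists was chosen after seeing the data. On simulated data for the wt 6 h comparison over 17052 genes, 20% of changes of log2 0.5 and 88% of log2 1 were recovered. Far fewer genes were given a change there than were called in the real comparison. Same-numbered arrays deviated together in few of 15 group pairs (correlation -0.134 to 0.185, 4 over 0.1), so the numbers were not taken to pair the arrays.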

Additional observations from a re-analysis of the deposited data

Results flagged for a closer look

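None of the 7 measured urea cycle and amino acid catabolism genes met a criterion. In the related lists 5 genes differed between genotypes in their response at 6 h, by the test of the difference itself in limma. These lists held 21 (nitrogen), 50 (amino acid), 11 (periportal), 17 (perivenous) and 16 (regulator) tested genes, some of them shared. Of all genes, 0.487% were called in that test. Pck1, which makes phosphoenolpyruvate for gluconeogenesis in periportal cells, had a KO response lower than the wt response by -1.48 ± 0.15 (adjusted p = 0.00324). At 6 h its wt arrays read 12.18 and 12.04 and its KO arrays 10.72 and 10.80, and the adjusted p was 0.00397 to 0.0198 with single arrays left out. For Klf15 the difference of responses was -1.24 ± 0.19 (adjusted p = 0.0226), with 4 of 12 left-out arrays taking it over 0.05. For Cdh1, E-cadherin, it was -1.55 ± 0.25 (adjusted p = 0.0274), with 5 of 12 doing so. For Tat it was -0.84 ± 0.15 (adjusted p = 0.0424), with 11 of 12 doing so. Slc1a4, a neutral amino acid transporter on the perivenous list, ran the other way, with 1.95 ± 0.32 (adjusted p = 0.0308), and 7 of 12 left-out arrays took it over 0.05.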

How the results depend on the processing

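The falls of Otc at 6 h in both genotypes, of Nags at 2 h in both and at 6 h in KO mice, and of Hal at 6 h in wt mice kept their call under each of the 8 other settings and each of the 12 left-out arrays. With single arrays left out, the number of the 7 genes called ranged from 1 to 3 in wt mice at 2 h, 2 to 3 at 6 h, 1 to 4 in KO mice at 2 h and 2 to 4 at 6 h. It was 0 to 4 for 6 h against 2 h in wt mice and 1 to 4 in KO mice, and 0 in every genotype comparison. In every comparison the number called over all genes also fell for some left-out arrays, so a lost call is not a trait of these 7 genes alone. With only the compared groups in the fit, the KO count for 6 h against 2 h was 1, since Arg1 did not pass (adjusted p = 0.104). In that fit calls were also lost for Arg1 in wt mice at 2 h (adjusted p = 0.053) and for 6 h against 2 h (adjusted p = 0.0574), Otc in KO mice at 2 h (adjusted p = 0.0627) and Hal in KO mice at 6 h (adjusted p = 0.0663). Calls were gained for Hal in wt mice at 2 h (adjusted p = 0.0016) and for 6 h against 2 h (adjusted p = 0.00891), and for Asl in KO mice at 2 h (adjusted p = 0.0312). Asl in KO mice at 2 h was also called with a variance trend (adjusted p = 0.0462). The fit with the replicate number as a block called 2 of the 7 genes in wt mice at 2 h, Arg1 being lost (adjusted p = 0.0592), and the same number of genes as without the block in the other comparisons. The arrays share only a number. Slc25a15 for 6 h against 2 h in wt mice lost its call under quantile normalization (adjusted p = 0.0537), and Arg1 in wt mice at 2 h lost its call without the filter on low values.

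Sign changes were found only among differences that passed no test. Under quantile normalization the sign turned for Cps1 in KO mice at 2 h (-0.0012), Nags for 6 h minus 2 h in KO mice (-0.052), Cps1 (0.067) and Hal (0.035) for KO minus wt in untreated mice, Cps1 for the mean of 3 conditions (0.0083), Cps1 for the difference of responses at 2 h (-0.076) and 6 h (-0.10), and Otc for the latter (-0.11). The cause was not tested. With single arrays left out, ranges that crossed 0 were as follows. For the wt response at 2 h the range was -0.0055 to 0.11 for Cps1. For the wt response at 6 h the range was -0.060 to 0.060 for Arg1. For the KO response at 2 h the range was -0.28 to 0.070 for Slc25a15. For the KO response at 6 h the range was -0.16 to 0.30 for Asl. For 6 h minus 2 h in wt mice the range was -0.33 to 0.12 for Asl. For 6 h minus 2 h in KO mice they were -0.0008 to 0.14 for Nags, -0.56 to 0.10 for Slc25a15 and -1.18 to 0.31 for Hal. For KO minus wt in untreated mice they were -0.10 to 0.011 for Cps1, -0.042 to 0.087 for Nags and -0.15 to 0.094 for Hal. For KO minus wt at 2 h they were -0.065 to 0.043 for Cps1, -0.18 to 0.033 for Arg1 and -0.41 to 0.51 for Hal. For KO minus wt at 6 h they were -0.057 to 0.019 for Cps1, -0.26 to 0.20 for Asl, -0.10 to 0.56 for Slc25a15 and -0.45 to 1.03 for Hal. For KO minus wt as the mean of 3 conditions they were -0.065 to 0.0043 for Arg1 and -0.14 to 0.35 for Hal. For the difference of responses at 2 h they were -0.023 to 0.088 for Cps1, -0.080 to 0.37 for Asl, -0.018 to 0.11 for Nags and -0.38 to 0.54 for Hal. For the difference of responses at 6 h they were -0.030 to 0.081 for Cps1, -0.021 to 0.072 for Otc, -0.39 to 0.066 for Asl, -0.48 to 0.18 for Slc25a15 and -0.42 to 1.06 for Hal. Smaller differences than those called may have been missed. Changes of log2 0.5 were seldom recovered on simulated data, where far fewer genes changed than were called in the wt 6 h comparison. The adjustment is stricter when few genes change, so that share does not carry over to the responses here.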

Other observations

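Other routes of amino acid breakdown can be read enzyme by enzyme; these genes were picked from the amino acid list after their values were seen. In the tryptophan route, the enzymes after Tdo2 were lower at 6 h in both genotypes (limma). Kmo differed from untreated by -1.12 ± 0.14 in wt and -0.96 ± 0.14 in KO mice, Kynu by -1.08 ± 0.11 and -0.91 ± 0.11, and Acmsd by -1.76 ± 0.28 and -1.72 ± 0.28. In branched-chain breakdown, the aminotransferase Bcat2 differed by -1.23 ± 0.21 and -1.33 ± 0.21, the dehydrogenase subunit Dbt by -0.98 ± 0.11 and -1.14 ± 0.11, and the leucine enzymes Ivd by -1.18 ± 0.12 and -1.40 ± 0.12 and Mccc1 by -1.05 ± 0.10 in both genotypes. In glycine cleavage, Gldc differed by -0.88 ± 0.13 and -0.77 ± 0.13 at 6 h and by 0.07 ± 0.13 and -0.07 ± 0.13 at 2 h, which did not pass. Gcsh of the same complex was called at 2 h already, at -0.72 ± 0.10 in wt and -0.83 ± 0.10 in KO mice. Amt, its aminomethyltransferase, read -0.55 ± 0.25 in wt mice at 2 h (adjusted p = 0.178) and was called in KO mice at -1.03 ± 0.25. Csad, which makes hypotaurine from cysteine products, was called higher in wt mice. Its wt differences were 1.97 ± 0.30 at 2 h and 1.36 ± 0.30 at 6 h. In KO mice it read 0.67 ± 0.30 and -0.10 ± 0.30, which did not pass. Nor did the difference of responses between genotypes pass, for Csad at either time or for Amt at 2 h.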
